A study of Mus musculus with 6 samples.

Results

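This account covers 10 mouse genes for proteases of endosomes and lysosomes, the cathepsins Ctsl, Ctss, Ctsh, Ctsz, Ctsc, Ctse, Ctsd, Ctsb and Ctsa, and legumain (Lgmn). All array probes that carry one of these gene names, older synonyms included, were taken whatever their signal. This gave 15 of the 41174 probes on the array. Of these, 14 passed the filter on dim probes, and each gene was represented in the test by its brightest probe, so that the 10 genes are 10 of the 18219 genes tested. Thymic epithelial cells (TEC), which form the stroma in which T cells develop and are selected, had been sorted from mice aged 4 weeks and divided by a green reporter for Meis1, a homeodomain transcription factor. All mice were C57BL/6 and carried the transgene Tg(Meis1-EGFP)FO156Gsat/Mmcd, so the reporter follows the regulatory sequence of a bacterial artificial chromosome and not the endogenous gene, and no group lacked the transgene. Sorted cells lacked the leukocyte antigen CD45 and carried the adhesion molecule EpCAM. The gates were set on size and reporter: small cells of high EGFP (Meis1-high), large cells of intermediate EGFP (Meis1-low), and small cells lacking EGFP (Meis1-negative). Size and reporter therefore cannot be told apart wherever Meis1-low is compared. Each gate was measured on 2 one-colour arrays, each from a pool of 6 mice. The p-values below are set against the spread between arrays of a gate, in which pool, slide and scan are not separated. Each level is given in log2 units above or below the 75th percentile of its array. A level on that scale is set only against the same probe on other arrays.

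Proteins that reach endosomes and lysosomes are cut by these proteases, and some of the fragments are loaded on MHC class II molecules and shown to CD4 T cells. The class II molecule first arrives with the invariant chain (Cd74) in its groove, and the last steps of removing that chain are carried out in mouse cortical TEC mainly by cathepsin L and in B cells and dendritic cells mainly by cathepsin S. Cortical TEC select CD4 thymocytes on such peptides, and medullary TEC show tissue antigens to them afterwards. The question put to the data was how the levels of these proteases stand in the 3 Meis1-EGFP gates.

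Promoter sequence from RefSeq (GRCm38.p6) was at hand for 7 of the 10 genes, in 9 windows that run from 250 bases before a transcript start to 50 after it. Ctsb, Ctsh and Ctse are named only. Shown are the 250 bases before the start for 3 of the genes with a window whose transcript start lies at the annotated gene edge. Ctsa and Lgmn also have such a window, which is not shown. Ctss and Ctsz shared one pattern over the arrays, and Ctsd did not. Capitals mark matches to the motifs searched, on both strands, which were CACGTG (a core bound by basic helix-loop-helix factors, among them the lysosomal regulator TFEB), the longer CLEAR element that contains it, and GAAA followed after any 2 bases by a further GAAA (a core bound by interferon regulatory factors).
Ctss, chr3:95526536-95526785, plus strand: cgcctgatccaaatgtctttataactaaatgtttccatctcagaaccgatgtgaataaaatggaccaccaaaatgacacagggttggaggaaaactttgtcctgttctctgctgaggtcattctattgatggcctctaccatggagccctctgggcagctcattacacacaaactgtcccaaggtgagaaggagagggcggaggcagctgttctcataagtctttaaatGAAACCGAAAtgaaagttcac
Ctsz, chr2:174439040-174439289, minus strand: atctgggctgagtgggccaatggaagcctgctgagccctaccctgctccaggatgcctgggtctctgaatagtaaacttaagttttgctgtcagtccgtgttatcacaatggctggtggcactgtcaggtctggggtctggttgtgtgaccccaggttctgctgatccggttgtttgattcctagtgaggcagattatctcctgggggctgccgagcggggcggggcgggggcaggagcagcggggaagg
Ctsd, chr7:142387828-142388077, minus strand: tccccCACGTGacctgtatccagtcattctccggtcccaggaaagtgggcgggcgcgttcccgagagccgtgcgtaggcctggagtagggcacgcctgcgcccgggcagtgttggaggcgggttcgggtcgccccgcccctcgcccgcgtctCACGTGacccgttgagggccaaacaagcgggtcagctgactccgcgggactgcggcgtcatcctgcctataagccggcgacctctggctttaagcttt
The Ctss window held the paired GAAA motif 21 bases before the start, written there as GAAACCGAAA, a motif found in 3.44% of all 32851 windows. The Ctsd window held CACGTG 245 and 98 bases before the start, and the Ctsz window held none of the motifs. CACGTG was also found 236 bases before the start in the Ctsl window, 49 bases before it in 1 of 2 Lgmn windows, and in 1 of 2 Ctsa windows, 12 bases before the start and again 5 bases after it. In all, 4 of the 9 windows held CACGTG, against 7.15% of all windows. Of these 4, only the Ctsd window has its start at the annotated gene edge, as 5 of the 9 windows do. The share over all windows was not split in this way. No window of the 7 genes held the CLEAR element, which 0.326% of all windows held. A match is a description of the letters and says nothing of binding.

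Probes are 60 bases long and their positions are given on mm9. The probe for Ctsl (A_51_P253547) lies at chr13:64465287-64465346 on the minus strand, and that for Ctss (A_51_P423981) at chr3:95360162-95360221 on the plus strand. For Ctsz, Ctsd, Ctsb and Ctsa the array holds more than 1 probe, which allows a gene's pattern to be read a further time on the same RNA. Shown are 3 of these, because the agreement or disagreement of a gene's probes turns on them.
Ctsz, probe A_52_P62085, chr2:174254084-174254143, minus strand: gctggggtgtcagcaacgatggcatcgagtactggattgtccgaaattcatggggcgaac
Ctsd, probe A_52_P35960, chr7:149562628-149562781, minus strand: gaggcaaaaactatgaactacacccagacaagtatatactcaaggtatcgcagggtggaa
Ctsa, probe A_52_P464315, chr2:164664388-164664447, plus strand: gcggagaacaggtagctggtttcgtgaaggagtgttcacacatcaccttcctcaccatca
The Ctsd probe spans 154 bases of the genome with its 60 letters, so that it bridges a gap between aligned blocks.

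The signal at the 75th percentile was 73.3 to 165.2 over the 6 arrays, and the share of spots well above background was 53.1% to 69.6%. All arrays of replicate 1 were on 1 slide and in 1 scan, and those of replicate 2 on the other. Endogenous Meis1 had levels of 0.24 and 0.12 in Meis1-high pools, -2.35 and -1.61 in Meis1-low pools, and -3.205 and -0.99 in Meis1-negative pools, so it was highest in the gate with bright reporter. Epcam was 3.72 and 4.51 for the Meis1-high pools, 4.31 and 4.79 for the Meis1-low pools, and 2.58 and 4.41 for the Meis1-negative pools. Ptprc, the gene of CD45, was -0.69 and 0.37 in Meis1-high pools and -1.003 and 0.43 in Meis1-low pools, against 5.16 and 3.17 in Meis1-negative pools, although the sort took CD45-negative cells. The mean of 16 thymocyte and T cell genes was 3.79 on Meis1-negative replicate 1 and between -1.52 and 0.27 on the other 5 arrays, while the mean of 7 pan-epithelial genes was 0.63 on that array and between 2.66 and 2.998 on the others. Meis1-negative replicate 1 stands apart from the other arrays in this. Replicate 2 of that gate also differed from the other gates. Its thymocyte mean was 0.27, against -1.52 to -1.05 on the arrays of Meis1-high and Meis1-low. The mean of 5 B cell genes was -1.75 and -0.34 in Meis1-negative pools, against -3.78 to -2.48 on those arrays. Of these genes, Cd79a and Pax5 were not well above background in Meis1-high. Wherever a difference from that gate is described below for one of the 10 genes, the values within slide 1, which holds that array, and within slide 2 are given beside it.

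Levels of most of these genes are described by patterns over the 3 gates, in which Ctsd, Ctsa and Lgmn were not placed. Ctsl stood highest in Meis1-high, Ctss, Ctsh and Ctsz stood lowest in Meis1-high and on 1 Meis1-negative array, Ctse and Ctsc were low in Meis1-high alone, and Ctsb varied little. No gene of the 10 passed the test in any comparison after adjustment, and neither did any of the 18219 genes tested (limma, Benjamini-Hochberg adjusted p under 0.05, 0% called in all 3 comparisons and in the moderated F test over the gates). Between Meis1-high and Meis1-low, an unadjusted p under 0.05 was reached by 4 of the 10 (Ctsl higher, Ctsh, Ctse and Ctsz lower), against 12.9% of all genes. Split by direction, that is 1 of 10 higher against 4.69% of all genes and 3 of 10 lower against 8.25%. Between Meis1-high and Meis1-negative it was reached by 2 of the 10 (Ctsl higher, Ctse lower), against 10.5% of all genes, with 5.71% higher and 4.83% lower. Between Meis1-low and Meis1-negative it was reached by 0 of the 10, against 8.08% of all genes, with 5.02% higher and 3.06% lower. The F test reached it for Ctsl and Ctse, against 11.4% of all genes.

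Gates whose arrays do not overlap were common among all genes. Meis1-high lay above Meis1-low on every array for Ctsl and Ctsa, against 22.7% of all genes, and below it for Ctss, Ctsh, Ctsc, Ctse and Ctsz, against 31.0%. Meis1-high lay above Meis1-negative on every array for Ctsl, against 19.3% of all genes, and below it for Ctsc and Ctse, against 19.9%. Meis1-low lay above Meis1-negative for Ctsh, against 23.4% of all genes, and below it for 0 of the 10, against 15.8%. The median log2 difference of the 10 genes was -0.96 between Meis1-high and Meis1-low (-0.15 over all genes tested), -0.43 for Meis1-high against Meis1-negative (-0.10 over all tested) and 0.16 for Meis1-low against Meis1-negative (0.05 over all tested). The comparisons share gates, so they are not independent of each other.

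**Figure D1:**
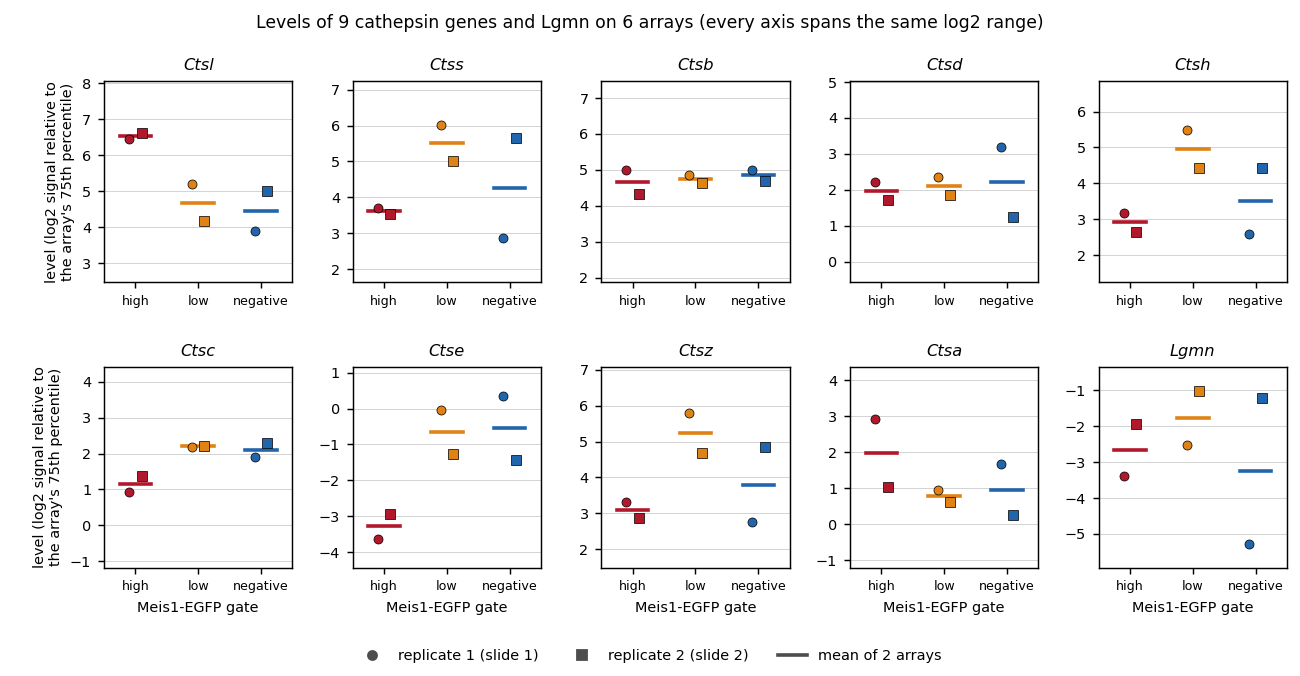
Levels of the 10 genes on each of the 6 arrays, as log2 signal relative to the array's 75th percentile, by Meis1-EGFP gate. Circles are replicate 1 and squares replicate 2, which share a slide across gates, and bars are means of 2 arrays. Ctsl is highest in the Meis1-high gate at 6.46 and 6.63, Ctss, Ctsh and Ctsz are highest in the Meis1-low gate, and the arrays of the Meis1-negative gate lie more than 1.5 apart for Ctss, Ctsh, Ctsz and Lgmn, with replicate 1 lower, and for Ctsd and Ctse, with replicate 1 higher.

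Ctsl encodes cathepsin L, the cysteine endopeptidase that trims the invariant chain in mouse cortical TEC. Its level was 6.46 and 6.63 for the Meis1-high pools, 5.21 and 4.16 for the Meis1-low pools, and 3.90 and 5.01 for the Meis1-negative pools. Both Meis1-high arrays lay above all 4 others, and the other gates overlapped. Each array measured a pool of sorted cells, so here and below fewer cells of a type and less RNA per cell cannot be told apart. The level was 3.63-fold higher in Meis1-high than in Meis1-low, a log2 difference of 1.86 ± 0.70 (SE, limma, n = 2 arrays a gate, adjusted p = 0.337), with 1.25 on slide 1 and 2.47 on slide 2. Against Meis1-negative it was 4.26-fold higher in Meis1-high, a log2 difference of 2.09 ± 0.70 (SE, adjusted p = 0.388), with 2.56 on slide 1 and 1.62 on slide 2. Of all genes, 5.62% had a higher difference between Meis1-high and Meis1-low than Ctsl, and 5.71% did between Meis1-high and Meis1-negative. With normexp background correction both Ctsl differences passed the test, at adjusted p = 0.0498 against Meis1-low and 0.0398 against Meis1-negative. Many genes were called with that setting, and neither Ctsl difference passed with any other. Meis1-low and Meis1-negative differed by 0.23 ± 0.70, with opposite signs on the slides (1.31 and -0.84). The order of Ctsl by gate mean was thus Meis1-high at 6.54 ± 0.12, Meis1-low at 4.68 ± 0.74 and Meis1-negative at 4.45 ± 0.78 (SD, n = 2), of which the last neighbours differed by less than their spread.

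Ctss encodes cathepsin S, the cysteine endopeptidase best known from B cells, macrophages and dendritic cells. Its level was 3.72 and 3.54 in Meis1-high pools, 6.00 and 5.01 in Meis1-low pools, and 2.87 and 5.65 in Meis1-negative pools. Meis1-high lay below both Meis1-low arrays, and the Meis1-negative arrays lay on either side, the one below Meis1-high and the other within Meis1-low. The log2 difference between Meis1-high and Meis1-low was -1.88 ± 0.96 (SE, adjusted p = 0.469), a level 3.68-fold lower in Meis1-high, with -2.29 on slide 1 and -1.47 on slide 2. Meis1-high against Meis1-negative gave -0.63 ± 0.96, but 0.84 on slide 1 and -2.11 on slide 2, so its direction turned with the array used. Likewise Meis1-low against Meis1-negative gave 1.24 ± 0.96, with 3.13 on slide 1 and -0.64 on slide 2. The arrays of the Meis1-negative gate differed 6.86-fold from each other for Ctss, and 10.7% of all genes differed more between these arrays.

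Ctsh and Ctsz encode exopeptidases, cathepsin H mainly an aminopeptidase and cathepsin Z (also named X) a carboxypeptidase. Ctsh was 3.18 and 2.65 for the Meis1-high pools, 5.49 and 4.44 for the Meis1-low pools, and 2.60 and 4.43 for the Meis1-negative pools. Ctsz was 3.32 and 2.88 in Meis1-high pools, 5.81 and 4.67 in Meis1-low pools, and 2.76 and 4.85 in Meis1-negative pools. Both genes had Ctss's order of arrays in outline, low in Meis1-high and on Meis1-negative replicate 1 and high on the other 3 arrays. Between Meis1-high and Meis1-low, Ctsh differed by -2.05 ± 0.81 (SE, adjusted p = 0.358), 4.14-fold lower in Meis1-high, with -2.31 and -1.79 on slides 1 and 2. Ctsz differed by -2.14 ± 0.85 (SE, adjusted p = 0.363), 4.39-fold lower in Meis1-high, with -2.48 and -1.79 on the slides. With normexp background correction these differences passed the test, at adjusted p = 0.0464 for Ctsh and 0.0366 for Ctsz, among the many genes called with that setting.

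Against Meis1-negative, the Meis1-high level of Ctsh differed by -0.60 ± 0.81 (0.58 and -1.78 on slides 1 and 2) and that of Ctsz by -0.70 ± 0.85 (0.56 and -1.97). The signs on the slides oppose each other for both genes, as they did for Ctss. Meis1-low lay above Meis1-negative by 1.45 ± 0.81 for Ctsh, nearly all of it on slide 1 (2.89, against 0.006 on slide 2), and by 1.43 ± 0.85 for Ctsz, with 3.05 on slide 1 and -0.18 on slide 2. The second Ctsz probe, shown above, gave the same order of gates on the same RNA. It read 0.11 and 0.97 for the Meis1-high pools, 2.82 and 2.41 for the Meis1-low pools, and -0.72 and 2.83 for the Meis1-negative pools, and its log2 difference between Meis1-high and Meis1-low was -2.07 ± 1.12 (SE, adjusted p = 0.505 over probes).

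**Figure D2:**
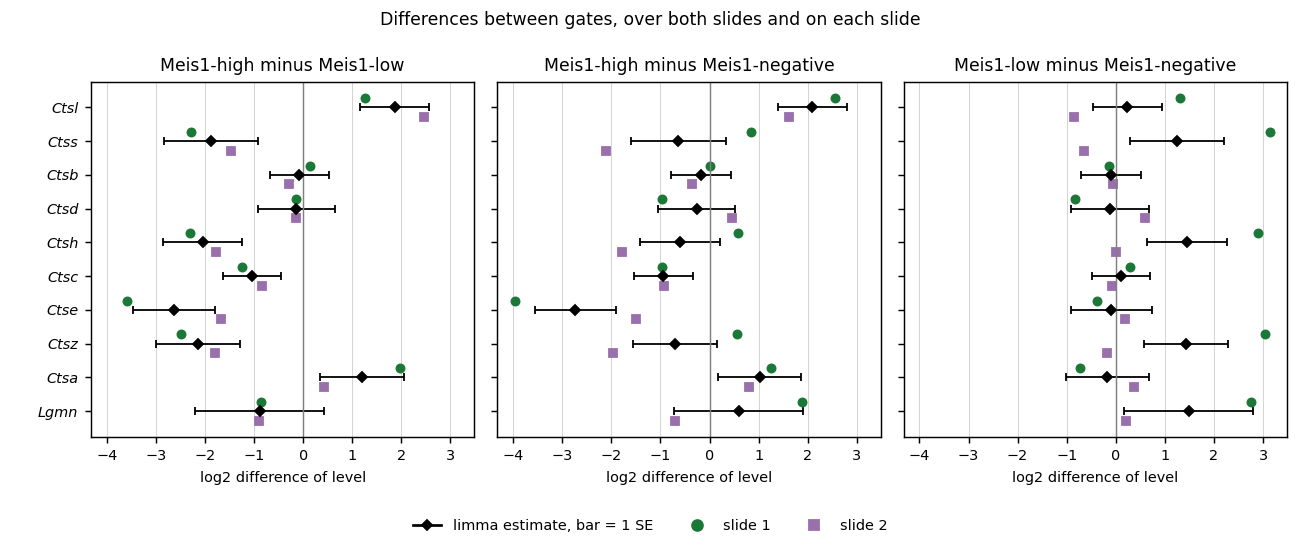
Log2 differences of level between gates for the 10 genes. Diamonds with bars are limma estimates with 1 SE, circles the difference within slide 1 and squares within slide 2. In the left panel Ctsl lies at 1.86 and Ctss, Ctsh and Ctsz at -1.88, -2.05 and -2.14 with both slides on the same side of 0, while in the other panels the slides of Ctss, Ctsh and Ctsz oppose each other or lie more than 2 apart.

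Over the 6 arrays the levels of Ctss, Ctsh and Ctsz moved together more closely than those of the other pairs. Pearson's r was 0.998 for Ctsh and Ctsz, 0.978 for Ctss and Ctsz and 0.966 for Ctss and Ctsh (6 arrays that share gates, slides and scaling, given as a description). The difference of Ctsh and Ctsz within an array ranged over 0.27 log2 units across all arrays, although each gene's own level ranged over 2.89 and 3.05. Ctsl did not follow them, with r of -0.14 with Ctss, -0.25 with Ctsh and -0.24 with Ctsz. The pairs that ran most in opposite directions were Ctsd and Lgmn (r = -0.91), Ctsc and Ctsa (r = -0.84) and Ctsl and Ctse (r = -0.83), of which Lgmn and Ctse were dim.

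A difference of 2 genes within an array does not depend on how arrays are scaled by a constant, and its change between gates can be compared. Ctsl minus Ctss was 2.74 and 3.09 in Meis1-high pools, -0.80 and -0.85 in Meis1-low pools, and 1.03 and -0.64 in Meis1-negative pools. Meis1-high lay above all other arrays, and the Meis1-low arrays nearly coincided. The ratio of Ctsl to Ctss was thus 13.4-fold higher in Meis1-high than in Meis1-low, with log2 differences of 3.54 and 3.94 on slides 1 and 2. Compared with Meis1-negative it was 6.62-fold higher in Meis1-high, with 1.72 and 3.74 on the slides. The same ratio against Ctsh was 15.0-fold and against Ctsz 15.96-fold higher in Meis1-high than in Meis1-low. These ratios were put together after the levels were known and carry no test, and how much of a ratio's change lies with each gene is given by the levels above.

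**Figure D3:**
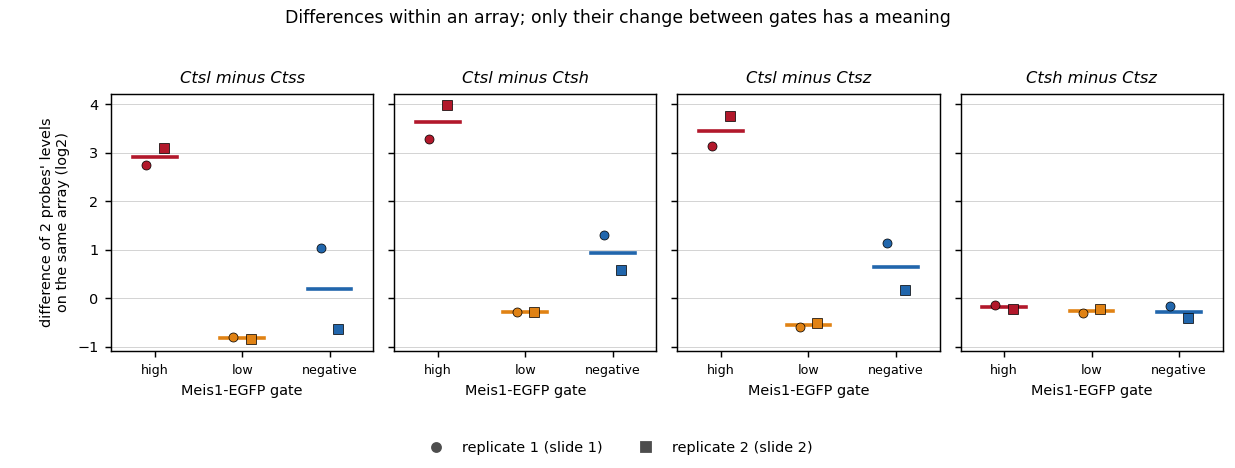
Differences between the levels of 2 genes on the same array (log2), by gate, for Ctsl minus Ctss, Ctsl minus Ctsh, Ctsl minus Ctsz and Ctsh minus Ctsz. Circles are replicate 1, squares replicate 2 and bars gate means. The first 3 panels have their highest values in the Meis1-high gate (2.74 and 3.09 for Ctsl minus Ctss), and the last stays within a range of 0.27.

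Ctsc encodes cathepsin C, a dipeptidyl peptidase known for activating the serine proteases of immune cell granules. Its level was 0.93 and 1.38 for the Meis1-high pools, 2.18 and 2.22 for the Meis1-low pools, and 1.89 and 2.30 for the Meis1-negative pools. Meis1-high lay below all 4 other arrays, and the other gates overlapped. Ctsc differed by -1.04 ± 0.60 between Meis1-high and Meis1-low (SE, adjusted p = 0.516) and by -0.94 ± 0.60 between Meis1-high and Meis1-negative (SE, adjusted p = 0.639). The slides gave -1.24 and -0.84 in the first comparison and -0.96 and -0.92 in the second, so that this difference, about 2.06-fold and 1.92-fold, did not rest on 1 Meis1-negative array.

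Ctse encodes cathepsin E, an aspartic protease of endosomes, and was a dim probe. Its level was -3.62 and -2.94 in Meis1-high pools, -0.03 and -1.26 in Meis1-low pools, and 0.35 and -1.44 in Meis1-negative pools, and it was not well above background on Meis1-high replicate 1. All other arrays lay above both Meis1-high arrays. The log2 differences of -2.63 ± 0.83 between Meis1-high and Meis1-low (SE, adjusted p = 0.291) and -2.73 ± 0.83 between Meis1-high and Meis1-negative (SE, adjusted p = 0.350) rest in part on that array, whose lowest signal well above background was -3.21. With Ctse set to that level there, Meis1-high lay below Meis1-low by at least 3.18 on slide 1 and by 1.68 on slide 2, and below Meis1-negative by at least 3.56 and by 1.49. With normexp background correction, which adds an offset of 50 to the signals, they came to -0.93 and -0.73.

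Ctsd encodes cathepsin D, the main aspartic protease of lysosomes. Its level was 2.22 and 1.71 for the Meis1-high pools, 2.35 and 1.86 for the Meis1-low pools, and 3.19 and 1.26 for the Meis1-negative pools. The gates overlapped, and both the highest and the lowest value came from Meis1-negative. The gap-bridging probe shown above read 1.47 and 1.77 in Meis1-high pools, 1.77 and 2.01 in Meis1-low pools, and 3.27 and 1.45 in Meis1-negative pools, so both probes had their highest value on Meis1-negative replicate 1. With the brighter probe, differences between gates were at most 0.26 in size, with SE 0.79, and their signs turned by slide against Meis1-negative. With that probe Meis1-high minus Meis1-negative was -0.98 on slide 1 and 0.46 on slide 2, and Meis1-low minus Meis1-negative was -0.84 and 0.603. The gap-bridging probe gave -0.74 ± 0.76 (SE) for Meis1-high minus Meis1-negative, with -1.80 and 0.32 on slides 1 and 2. For Meis1-low minus Meis1-negative it gave -0.46 ± 0.76, with -1.49 and 0.56. Its Meis1-high arrays lay just below its Meis1-low arrays, by -0.27 ± 0.76, and 31.0% of all genes were lower there without overlap. On the array where Ctsd was highest the thymocyte genes were highest too, as given above, and their part in its level was not tested.

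Ctsb encodes cathepsin B, a cysteine protease that also removes dipeptides from the carboxyl end. It read 5.0 and 4.34 for the Meis1-high pools, 4.87 and 4.63 for the Meis1-low pools, and 5.0 and 4.69 for the Meis1-negative pools. Its range over the 6 arrays, 0.67, was the lowest of the 10 genes. The gates overlapped in every comparison, with differences between -0.17 and -0.08 and SE 0.61, and between -0.35 and 0.14 within slides. A dim second probe (A_52_P433889), well above background on 5 arrays, read -3.04 and -2.91 in Meis1-high pools, -4.66 and -2.86 in Meis1-low pools, and -1.74 and -3.95 in Meis1-negative pools. It lies at chr14:63764131-63764190, beyond the first probe at chr14:63761906-63761965, and does not follow it.

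Ctsa encodes cathepsin A, a serine carboxypeptidase that also protects the lysosomal enzymes encoded by Neu1 and Glb1. The probe shown above read 2.92 and 1.04 for the Meis1-high pools, 0.95 and 0.61 for the Meis1-low pools, and 1.67 and 0.24 for the Meis1-negative pools. Meis1-high lay above Meis1-low by 1.20 ± 0.85 (SE, adjusted p = 0.604), with 1.97 on slide 1 and 0.42 on slide 2, and by 0.26 without Meis1-high replicate 1. Against Meis1-negative it lay higher by 1.02 ± 0.85, with 1.25 on slide 1 and 0.798 on slide 2, although the gates overlapped. Probe A_51_P408410 read 0.33 and 0.27 in Meis1-high pools, 0.08 and -0.04 in Meis1-low pools, and 0.32 and -0.16 in Meis1-negative pools, a difference of 0.28 ± 0.60 between Meis1-high and Meis1-low, so the high value of Meis1-high replicate 1 was seen with 1 probe only. The last probe (A_52_P672803) was well above background on 2 arrays and was not tested.

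Lgmn encodes legumain, which cuts after asparagine and can open antigens and activate other proteases. Its probe was dim, not well above background on Meis1-high replicate 1 and Meis1-negative replicate 1. It read -3.38 and -1.93 for the Meis1-high pools, -2.51 and -1.02 for the Meis1-low pools, and -5.27 and -1.23 for the Meis1-negative pools. Replicate 1 lay below replicate 2 in every gate, and all gates overlapped. The difference of 1.48 ± 1.32 between Meis1-low and Meis1-negative (SE, adjusted p = 0.747) rests on an array without a measured level. With signals held at the lowest level well above background it was 0.69, with 1.18 on slide 1 and 0.21 on slide 2. Between Meis1-high and Meis1-negative the difference was 0.59 ± 1.32, and 1.89 on slide 1 but -0.699 on slide 2, and with signals so held its sign turned to -0.11.

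Among the genes tested, those whose levels ran most like Ctsl over the 6 arrays were Lmod1 (r = 0.999), Tgfbi (r = 0.996) and Wfikkn2 (r = 0.995). Tgfbi, for an extracellular matrix protein, read 3.605 and 3.79 in Meis1-high pools, 1.91 and 0.76 in Meis1-low pools, and 0.33 and 2.02 in Meis1-negative pools. Those most like Ctss were Ppbp, Cyb561a3 and Lhx8, each with r of 0.988 to 0.991. Lhx8 was dim, at -5.52 and -5.22 in Meis1-high pools and -5.99 on Meis1-negative replicate 1. These levels lay below the lowest signal well above background on those arrays. Cyb561a3, for a cytochrome of lysosomal membranes, read 1.10 and 1.001 for the Meis1-high pools, 2.42 and 1.65 for the Meis1-low pools, and 0.72 and 2.24 for the Meis1-negative pools. With 6 points high correlations are common, since 112 genes exceeded 0.95 with Ctsl and 139 with Ctss. Ctsz ranked 18 and Ctsh 58 among 18203 genes by likeness to Ctss.

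Of the other lysosomal peptidases, 11 of 12 listed genes were tested and 0 passed after adjustment in any comparison. Between Meis1-high and Meis1-low, 4 were higher and 7 lower, with a median of -0.35 (all genes -0.15). Prss16, the thymus-specific serine protease of cortical TEC, read 2.36 and 4.28 in Meis1-high pools, 1.02 and 1.37 in Meis1-low pools, and -0.29 and 2.22 in Meis1-negative pools. Like Ctsl it was highest in Meis1-high, by 2.13 ± 1.01 against Meis1-low (SE, adjusted p = 0.433), and its replicates there lay further apart. Scpep1, a serine carboxypeptidase, read 1.95 and 2.24 for the Meis1-high pools, 4.49 and 3.67 for the Meis1-low pools, and 2.497 and 4.10 for the Meis1-negative pools. It was low in Meis1-high like Ctss, but its level on Meis1-negative replicate 1 lay above both Meis1-high arrays, and it had a log2 difference of -1.98 ± 0.75 between Meis1-high and Meis1-low (SE, adjusted p = 0.337). Napsa, an aspartic protease related to cathepsins D and E, was not well above background in Meis1-high. Relative to Meis1-low its Meis1-high level lay at least 4.13-fold lower (adjusted p = 0.250), and relative to Meis1-negative at least 4.81-fold lower (adjusted p = 0.154), where such a bound sets the dim gate at the lowest signal well above background on its arrays.

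All 8 listed inhibitors of cathepsins were tested and 0 passed, with 2 higher and 6 lower in Meis1-high than in Meis1-low (median -0.30). Cst7, for cystatin F, a leukocyte inhibitor of cathepsins C, H and L, was not well above background in Meis1-high and was at least 1.67-fold lower there than in Meis1-low. Cst3, for the secreted cystatin C, read 3.89 and 3.37 in Meis1-high pools, 4.28 and 3.54 in Meis1-low pools, and 3.19 and 5.501 in Meis1-negative pools. Cstb, for the intracellular cystatin B, read 4.43 and 4.44 for the Meis1-high pools, 4.90 and 4.38 for the Meis1-low pools, and 3.005 and 4.10 for the Meis1-negative pools. Neither separated Meis1-high from Meis1-low. Ctla2a, for a T cell inhibitor of cathepsin L, read 2.02 on Meis1-negative replicate 1 and between -3.81 and -2.09 on the other arrays.

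All 14 listed genes of the class II pathway were tested and 0 passed. In Meis1-high 13 of 14 were lower than in Meis1-low, with a median of -0.91, and in Meis1-low 13 of 14 were higher than in Meis1-negative, with a median of 1.08 (all genes 0.05). Their mean level was 2.92 and 2.68 in Meis1-high pools, 3.79 and 3.36 in Meis1-low pools, and 1.83 and 3.40 in Meis1-negative pools. The mean was thus higher in Meis1-low than in Meis1-negative on slide 1 (3.79 against 1.83) but not on slide 2 (3.36 against 3.40). Ciita, the class II transactivator, read 0.44 and 0.33 for the Meis1-high pools, 1.59 and 1.22 for the Meis1-low pools, and -2.45 and 0.92 for the Meis1-negative pools. Ifi30, for the lysosomal thiol reductase that unfolds antigens, read 2.67 and 1.96 in Meis1-high pools, 4.11 and 3.096 in Meis1-low pools, and 1.81 and 3.385 in Meis1-negative pools. Not all members followed this, since H2-DMa, for a chain of the peptide exchange factor DM, and Cd74 were highest on Meis1-high replicate 1. Cd74, the invariant chain that Ctsl and Ctss trim, overlapped between all gates, at 8.495 and 7.10 for the Meis1-high pools, 8.32 and 7.79 for the Meis1-low pools, and 6.72 and 7.95 for the Meis1-negative pools.

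Lysosome proteins as a list gave no such difference. Of 31 listed, 30 were tested and 0 passed, with 11 higher and 19 lower in Meis1-high than in Meis1-low and a median of -0.24. Their mean level was 1.36 and 1.54 in Meis1-high pools, 1.55 and 1.58 in Meis1-low pools, and 1.30 and 1.59 in Meis1-negative pools. Lamp1, a main membrane protein of lysosomes, read 5.95 and 6.31 for the Meis1-high pools, 6.76 and 6.42 for the Meis1-low pools, and 5.52 and 6.63 for the Meis1-negative pools. Glb1, for the beta-galactosidase that cathepsin A protects, was lowest in Meis1-high, with -0.06 and -0.37 for the Meis1-high pools, 1.60 and 0.94 for the Meis1-low pools, and 1.05 and 0.40 for the Meis1-negative pools.

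Markers of several cell types moved with these genes over the arrays. The mean level of 11 mature medullary TEC genes was 0.83 and 0.85 in Meis1-high pools, 2.62 and 2.62 in Meis1-low pools, and -0.06 and 2.37 in Meis1-negative pools. Aire, the regulator of tissue antigens in that cell type, read 1.19 and 2.69 for the Meis1-high pools, 3.87 and 4.65 for the Meis1-low pools, and 1.22 and 3.84 for the Meis1-negative pools. The mean of 12 macrophage and dendritic cell genes was -1.31 and -0.79 in Meis1-high pools, 0.32 and 0.61 in Meis1-low pools, and -1.26 and 0.89 in Meis1-negative pools. The mean of 4 erythroid genes was -3.40 and -3.10 in Meis1-high pools, -0.61 and -0.73 in Meis1-low pools, and -3.17 and -1.95 in Meis1-negative pools. Of these genes, Hbb-bh1 and Klf1 were not well above background in Meis1-high, nor was Klf1 in Meis1-negative. The low erythroid means thus rest in part on levels that were not measured. For 7 microfold-like TEC genes the mean was 1.29 and 1.302 for the Meis1-high pools, 2.61 and 2.31 for the Meis1-low pools, and -1.01 and 1.87 for the Meis1-negative pools. All of these lists had lower means on the arrays where Ctss, Ctsh and Ctsz were low than on the other 3. Of the 17 macrophage and dendritic cell genes on the array, 12 were tested, 10 of them lower in Meis1-high than in Meis1-low, and Cx3cr1 and Siglech were not well above background on any array. Adgre1, for the macrophage surface protein F4/80, read 0.94 and 0.73 for the Meis1-high pools, 3.43 and 3.07 for the Meis1-low pools, and -0.42 and 2.34 for the Meis1-negative pools. The sort took cells that lacked CD45 and carried EpCAM, yet Ptprc was higher in Meis1-negative pools than in the other gates, as given above. Ptprc, which is on that list, differed by 0.13 ± 0.90 between Meis1-high and Meis1-low (SE, adjusted p = 0.967). The parts of these cell types in the levels of Ctss, Ctsh and Ctsz were not tested.

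The 12 cortical TEC genes, among them Prss16, had mean levels of 0.83 and 1.77 in Meis1-high pools, 0.87 and 0.38 in Meis1-low pools, and -1.64 and 0.77 in Meis1-negative pools. Psmb11, the thymoproteasome subunit that marks cortical TEC, read 3.65 and 4.37 for the Meis1-high pools, 2.20 and 1.33 for the Meis1-low pools, and -1.37 and 2.51 for the Meis1-negative pools. The 7 immature medullary TEC genes were also highest in Meis1-high, with mean levels of 4.42 and 4.23, against 2.41 and 1.75 in Meis1-low pools and 1.08 and 2.64 in Meis1-negative pools. The cortical list as a whole did not separate Meis1-high from Meis1-low, with 6 genes higher and 6 lower, whereas all 7 immature medullary genes were higher in Meis1-high (median difference 2.13). All 7 tuft-like TEC genes tested were likewise higher there than in Meis1-low (median difference 2.91). None of them overlapped between these gates, and of all genes 22.7% lay higher in Meis1-high without overlap. Their mean level was 1.06 and 1.24 in Meis1-high pools, -1.83 and -1.63 in Meis1-low pools, and -3.43 and -0.999 in Meis1-negative pools. The part of any of these cell types in the level of Ctsl was not tested.

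**Figure D4:**
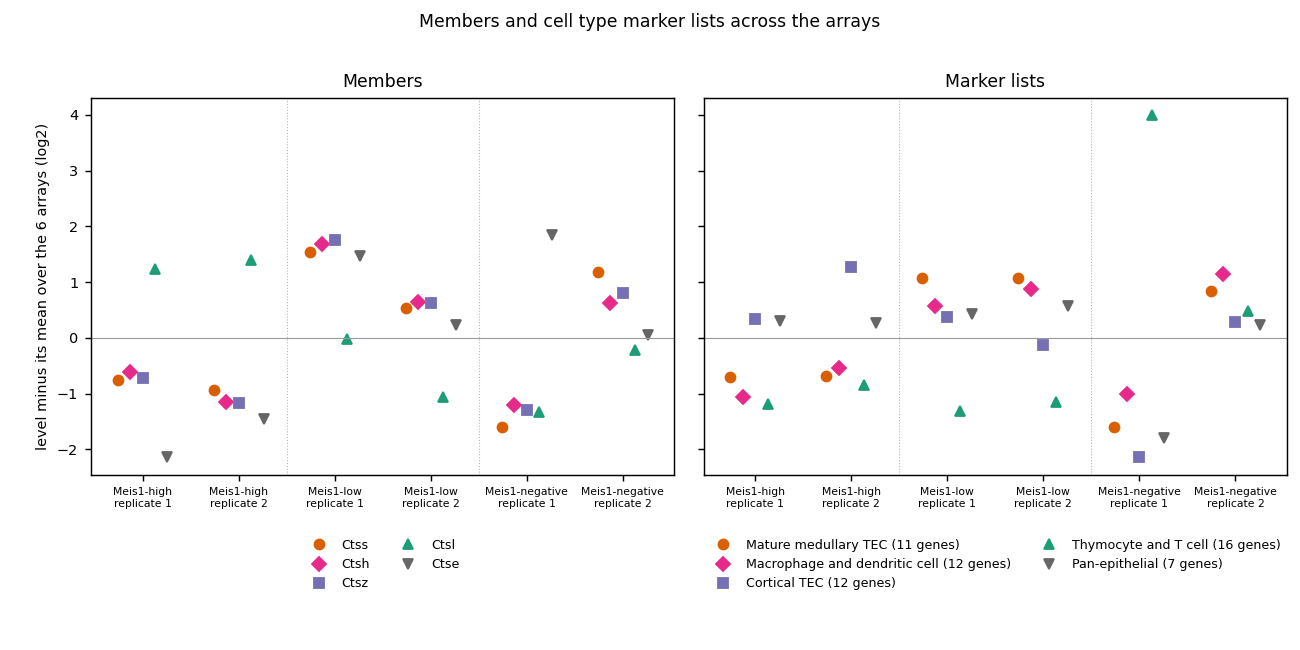
Levels of Ctss, Ctsh, Ctsz, Ctsl and Ctse (left) and mean levels of marker lists (right) on the 6 arrays, each as the log2 difference from its own mean over the arrays. Ctss, Ctsh and Ctsz and the mature medullary and macrophage and dendritic cell lists are low on both Meis1-high arrays and on Meis1-negative replicate 1, where the thymocyte list peaks and the pan-epithelial list is lowest.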

How the data were processed

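RNA (10 ng a sample, per the labels' protocols) of 6 sorted pools was amplified, labelled with Cy3 and hybridised to 6 one-colour whole mouse genome arrays. Agilent Feature Extraction 9.5.3.1 produced the scanner files, per the file headers, and the deposited signal is an intensity, background-subtracted and detrended within the array but not scaled between arrays, with probe positions on mm9. The authors' deposited value table is on a log2 scale. Set against the scanner values it proved to be scaled by array, with the median of every probe moved to 0 and higher values for higher signal, and its column medians are 0.156 and 0.043 (Meis1-high), -0.168 and -0.018 (Meis1-low), and 0.026 and -0.011 (Meis1-negative).

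Control spots and the 53 to 78 spots per array marked as outliers were left out, the spots of a probe averaged, and each array's 75th percentile subtracted on the log2 scale. Probes marked by the scanner as well above background (13 SD of the background) in both replicates of 1 gate or more entered the test, 26590 of 41174. Each gene was read from its brightest probe by mean, giving 18219 genes. The test was limma 3.58.1 (R 4.3.3), fitted to all 6 arrays with a mean for each gate and 3 residual degrees of freedom, and p-values were adjusted by Benjamini-Hochberg over all genes tested. Only 2 arrays a gate limit the precision. Replicate numbers, which are also slide and scan, were not blocked, since the labels state no pairing of pools. The fit was tested on simulated data for Meis1-high against Meis1-negative, with 50 changed genes at each size. It called 0 of 50 at a true log2 size of 1, 0 at 2, 24 at 4 and 49 at 6. A gene that did not pass is therefore not shown to be unchanged. For a gene below that mark throughout a gate, a fold is given as a bound.

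Probes were taken by gene name alone, but the choice of these 10 genes and of the lists was made with earlier results of these data known. The rule for naming genes took all members, up to 3 genes of each list per comparison by smallest p, 23 fixed genes, and the 3 genes most correlated with Ctsl and with Ctss. Alternatives were median or quantile scaling, normexp correction (offset 50), a floor under dim signals, a filter on 4 arrays or none, outlier spots included, means of probes, the authors' values, array weights, a robust fit with a variance trend, the replicate block, fits to the 4 arrays compared, and fits without each array in turn. B cell, fibroblast, endothelial, erythroid, tuft-like and microfold-like lists were also counted, with 0 genes called in each. Their median log2 differences between Meis1-high and Meis1-low were -0.87, 1.31, 0.40, -2.42, 2.91 and -0.81. Sequences are RefSeq's or the array's. Tables and figures were made with pandas 2.3.3 and matplotlib 3.10.9 (Python 3.11.15).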

Additional observations from a re-analysis of the deposited data

How the results depend on the processing

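Having 2 arrays a gate limits the precision of every difference, and dim signal over background limits those of Ctse and Lgmn further. Under settings other than leaving out an array, 380 of 390 differences of single genes kept their direction and side of the threshold, 4 newly passed it and 6 turned sign. No gene passed in the fit as described, and members passed only with normexp correction. There 235 genes were called between Meis1-high and Meis1-low (3 members: Ctsl, Ctsh, Ctsz), 304 between Meis1-high and Meis1-negative (1 member: Ctsl), 122 between Meis1-low and Meis1-negative and 458 by the F test (1 member: Ctsl, adjusted p = 0.0228). Median scaling called 74 genes between Meis1-high and Meis1-negative, 13 between Meis1-low and Meis1-negative and 61 by the F test, the floor called 21 and the variance trend 4 between Meis1-high and Meis1-negative, with no member among them. Median scaling moved the genome-wide median for Meis1-high against Meis1-negative by -0.102, and normexp correction moved it by 0.172, and by 0.125 for Meis1-low against Meis1-negative. The signs that turned were Ctsb between Meis1-high and Meis1-low (0.16 with quantile scaling, 0.36 with means of probes) and between Meis1-high and Meis1-negative (0.11 with quantile scaling), Lgmn there too (-0.11 with the floor), and, for Meis1-low against Meis1-negative, Ctsc (-0.082) and Ctse (0.19), both with normexp correction. The cause was not tested.

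The replicate block called 0 genes in every comparison, with adjusted p = 0.320 for Ctsl and 0.347 for Ctsh between Meis1-high and Meis1-low, and changed no call. Over genes, the differences between replicates of Meis1-high correlated with those of Meis1-low at 0.209 and with those of Meis1-negative at 0.128, and the other pair of gates gave 0.125. A pair of numbers does not settle a pairing.

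Leaving out 1 array at a time called between 0 and 951 genes from Meis1-high against Meis1-negative, 0 to 1265 from Meis1-low against Meis1-negative and 0 to 971 by the F test, all of the highest without Meis1-negative replicate 2, and 0 members. Without an array, 23 of 180 differences turned sign, and the lowest and highest values of those genes were as follows. Between Meis1-high and Meis1-low they were Ctsb -0.41 to 0.26 and Ctsd -0.39 to 0.11. Between Meis1-high and Meis1-negative they were Ctsb -0.51 to 0.16, Lgmn -1.43 to 2.62, Ctsd -1.23 to 0.71, Ctss -2.02 to 0.75, Ctsh -1.52 to 0.31 and Ctsz -1.74 to 0.34. Between Meis1-low and Meis1-negative they were Ctsl -0.32 to 0.78, Ctsb -0.25 to 0.055, Ctsd -1.09 to 0.85, Ctse -0.99 to 0.80, Ctss -0.14 to 2.63, Ctsc -0.10 to 0.30, Ctsa -0.89 to 0.54 and Lgmn -0.54 to 3.504.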
